A study of Mus musculus with 7 samples.

Results

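Intestinal stem cell genes are the genes by which the dividing cells at the base of the intestinal crypt are recognised, together with the feedback genes that Wnt signalling switches on in those cells. A set of 10 was followed here, chosen by gene name from the 46671 genes of the deposited table: Lgr5, Ascl2, Olfm4, Smoc2, Rnf43, Znrf3, Axin2, Tnfrsf19, Sox9 and Ephb2. All 10 were present and all 10 passed the minimum level for testing, a mean of 0.5 FPKM (reads scaled by gene length and by library size).

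RNA was sequenced from 7 libraries of epithelium of 8-week-old BALB/C mice. In 4 of them the kinase MST3, encoded by Stk24, was knocked out in intestinal epithelial cells (cKO), and 3 came from wild-type (WT) mice (Ctrl). The sources used here do not give the Cre driver or say if the libraries stem from different animals. The p-values therefore cover only library-to-library variation, which may be technical. The design text speaks of littermates and names azoxymethane and dextran sulfate sodium (AOM&DSS), whereas the treatment label of every sample in both groups says that no drug was used.

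In the crypt, Wnt ligands and R-spondins reach the stem cells from neighbouring cells. R-spondin binds LGR receptors and removes the ubiquitin ligases RNF43 and ZNRF3, which otherwise clear Wnt receptors from the surface. Beta-catenin then acts with TCF factors on target genes such as Axin2, Ascl2 and Ephb2, and several of the targets damp the same pathway. In the mouse, Olfm4 marks these cells in the small intestine and is little expressed in the colon.

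The libraries held 14659708 to 19659622 reads assigned to genes. Stk24 stood at 2.92, 3.04, 3.85 and 3.53 FPKM in cKO, against 19.4, 19.4 and 20.9998 FPKM in Ctrl, and was lower in cKO with a log2 difference of -2.42 (SE 0.12, adjusted p = 0.000427 in limma). The samples are labelled as colorectum, yet the summed level of 8 small intestinal genes was 5730 to 9484 FPKM in cKO and 9857 to 11578 FPKM in Ctrl. The sum of 8 large intestinal genes was 2.88 to 4.98 FPKM in cKO and 2.65 to 4.70 FPKM in Ctrl, with Hoxd12 and Hoxd13 listed at 0 in every library. Libraries also stood apart within both groups. In a comparison of read counts over genes, cKO replicates 1 and 2 were the most alike of all pairs (chi-square per degree of freedom 19.5), replicates 3 and 4 came next (26.8), and replicates 1 and 4 were the least alike (73.5). The pairs of Ctrl libraries stood at 35.3, 37.4 and 50.4, and cKO replicate 3 with Ctrl replicate 3 at 71.4. No pair was within sampling noise, for which this value would be near 1.

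No stem cell gene passed the test between cKO and Ctrl. The limma fit, on log2(FPKM + 0.5) and adjusted over 13057 genes, called 0 of the 10, where it called 0.0306% of all genes tested. At an unadjusted p under 0.05 the count was also 0 of 10, against 8.97% of all genes tested (4.24% higher and 4.73% lower in cKO), and limma voom on recovered reads likewise called 0. None of the 10 had libraries that separated the groups, against 10.1% of all genes tested (5.62% higher and 4.51% lower in cKO). The log2 difference was above 0 for 7 of the 10, against 48.7% of all genes tested. The log2 differences lay between -0.10 for Axin2 and 0.21 for Ephb2, with a median of 0.037 beside -0.0077 over all genes. The 10 genes were spread widely inside the cKO group: 9 stood above every Ctrl library in cKO replicate 1 and 9 in replicate 2, while 5 stood below every Ctrl library in replicate 3 and 6 in replicate 4.

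**Figure D1:**
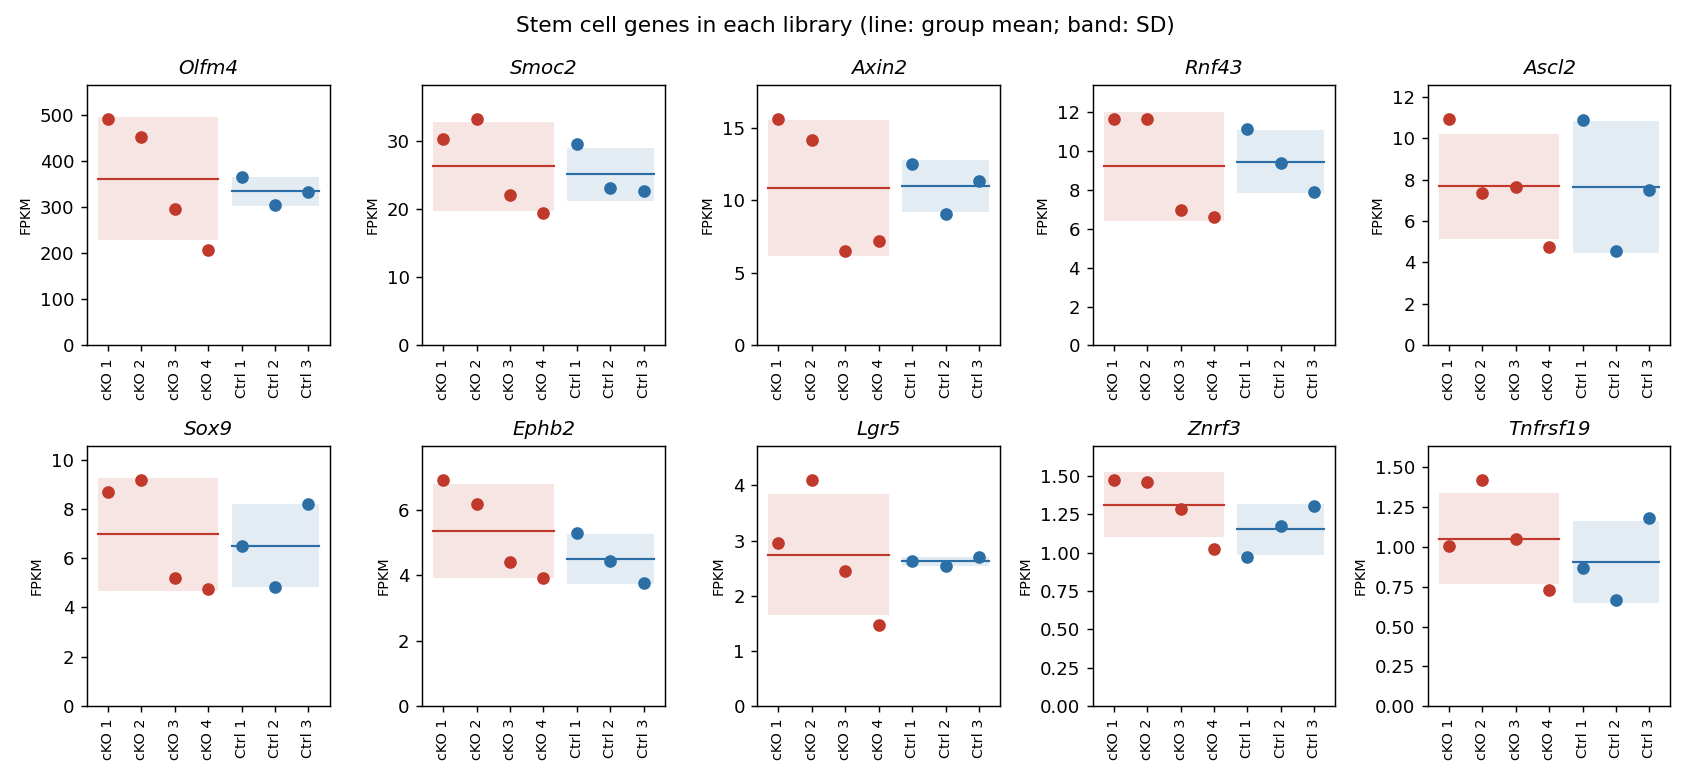
FPKM of each stem cell gene (vertical axis, from 0) in the 4 cKO libraries (red) and the 3 Ctrl libraries (blue), with the group mean as a line and the SD as a band. Olfm4 stood at 492 FPKM in cKO replicate 1 and 207 FPKM in cKO replicate 4, on either side of the Ctrl libraries.

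The R-spondin receptor Lgr5, the classic marker of the crypt base columnar cell, stood at 2.96, 4.10, 2.44 and 1.46 FPKM in cKO, against 2.62, 2.54 and 2.70 FPKM in Ctrl. The Ctrl libraries lay within 1.06-fold of each other, whereas the highest cKO library was 2.80-fold above the lowest. The group means were 2.74 ± 1.0997 FPKM in cKO (SD, n = 4) and 2.62 ± 0.0805 FPKM in Ctrl (SD, n = 3), a log2 difference of -0.01 with a 95% confidence interval from -0.62 to 0.59 (limma adjusted p = 0.994). Lgr5 rested on 248, 326, 167 and 96 reads in cKO and on 240, 201 and 206 reads in Ctrl. Counting error was thus 5.54% to 10.2% per library, less than the spread inside cKO. The 1.06-fold range of the Ctrl libraries was no wider than counting error can give, so it does not show a tightly held Ctrl level.

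The ligases that R-spondin removes differed in level and in spread. Rnf43 stood at 11.6, 11.7, 6.98 and 6.62 FPKM in cKO, against 11.1, 9.37 and 7.87 FPKM in Ctrl. Replicates 1 and 2 of cKO lay above all Ctrl libraries, by a margin of the size of the counting error of Rnf43 (3.19% to 4.89%), and replicates 3 and 4 below them. The log2 difference of Rnf43 was -0.07 (95% interval -0.61 to 0.47, limma adjusted p = 0.949). Znrf3, its close relative with the same function, was lower in level at 1.48, 1.46, 1.29 and 1.02 FPKM in cKO, against 0.975, 1.17 and 1.31 FPKM in Ctrl. Its libraries overlapped, with a 1.44-fold spread inside cKO, the narrowest of the 10, and a log2 difference of 0.13 (95% interval -0.26 to 0.52, limma adjusted p = 0.849).

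Axin2, a scaffold of the complex that degrades beta-catenin and the most used readout of Wnt activity, stood at 15.6, 14.1, 6.51 and 7.17 FPKM in cKO, against 12.5, 9.03 and 11.4 FPKM in Ctrl. The cKO libraries fell on both sides of the Ctrl range and none lay within it. The mean was 10.85 ± 4.68 FPKM in cKO (SD, n = 4) and 10.97 ± 1.78 FPKM in Ctrl (SD, n = 3), and the log2 difference of -0.10 had an interval from -0.83 to 0.62 (limma adjusted p = 0.943). Tnfrsf19, a receptor of the tumour necrosis factor family also called Troy that restrains Wnt signalling in these cells, was the least abundant of the 10. It stood at 1.01, 1.42, 1.05 and 0.731 FPKM in cKO, against 0.870, 0.666 and 1.18 FPKM in Ctrl, on 50 to 118 reads per library, with a counting error of up to 14.1%. Only cKO replicate 2 lay outside the Ctrl range, and the log2 difference was 0.14 (95% interval -0.36 to 0.64, limma adjusted p = 0.876).

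Of the transcription factors, Ascl2, the bHLH factor that maintains stem cell identity, stood at 10.9, 7.36, 7.65 and 4.77 FPKM in cKO, against 10.9, 4.54 and 7.51 FPKM in Ctrl. Its highest library exceeded its lowest 2.29-fold in cKO and 2.39-fold in Ctrl, so that it varied about as much in both groups. Ascl2 exceeded the highest Ctrl library in cKO replicate 1 by less than its counting error, which was 5.42% to 9.67%. Its log2 difference was 0.03 (95% interval -0.71 to 0.77, limma adjusted p = 0.984), the widest interval among the members. Sox9, an HMG-box factor of stem and Paneth cells, stood at 8.70, 9.18, 5.22 and 4.77 FPKM in cKO, against 6.47, 4.83 and 8.20 FPKM in Ctrl. Replicate 4 lay below the lowest Ctrl library by less than the counting error of Sox9 (3.95% to 6.03%), and the log2 difference was 0.07 (95% interval -0.55 to 0.68, limma adjusted p = 0.957).

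Among the secreted and surface markers, Olfm4, a secreted glycoprotein, was by far the most abundant. It stood at 492, 452, 296 and 207 FPKM in cKO, against 367, 304 and 333 FPKM in Ctrl. It rested on 7918 to 24066 reads, with a counting error of at most 1.12%, so its 2.38-fold spread in cKO far exceeded counting error, as against 1.205-fold in Ctrl. The mean was 362 ± 134 FPKM in cKO (SD, n = 4) and 335 ± 31.2 FPKM in Ctrl (SD, n = 3), a log2 difference of 0.03 with an interval from -0.66 to 0.73 (limma adjusted p = 0.981). Smoc2, a matricellular protein of the SPARC family, followed at 30.4, 33.3, 22.1 and 19.5 FPKM in cKO, against 29.6, 23.1 and 22.7 FPKM in Ctrl. Here too cKO replicates 1 and 2 lay above and replicates 3 and 4 below the Ctrl range. Replicates 1 and 3 did so by a margin of the size of the counting error of Smoc2, which was 2.46% to 3.59%. It had a log2 difference of 0.04 (95% interval -0.43 to 0.51, limma adjusted p = 0.967). Ephb2, the receptor of B-type ephrins that keeps cells in the crypt, stood at 6.92, 6.19, 4.39 and 3.92 FPKM in cKO, against 5.29, 4.42 and 3.76 FPKM in Ctrl. It had the largest log2 difference of the 10, 0.21 (95% interval -0.27 to 0.69, limma adjusted p = 0.783), and overlapped between the groups.

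**Figure D2:**
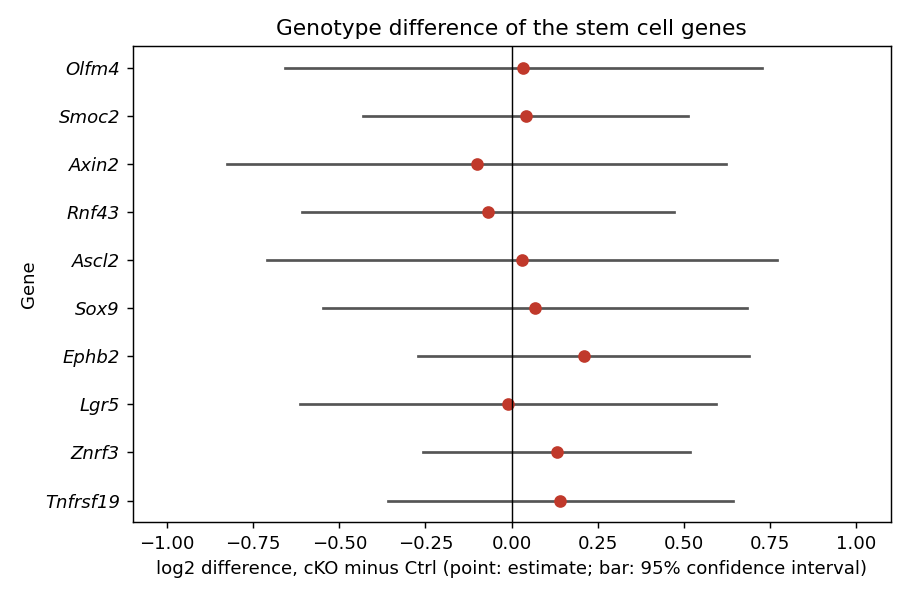
Log2 difference of each stem cell gene, cKO minus Ctrl, on the log2(FPKM + 0.5) scale (horizontal axis), with the limma estimate as a point and its 95% confidence interval as a bar. Every interval includes 0, and they reach from -0.83 for Axin2 to 0.77 for Ascl2.

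For Olfm4, whose level far exceeds the 0.5 FPKM added before taking logs, the interval corresponds to a cKO level between 0.633 and 1.66 times that of Ctrl. For the genes of low level the added 0.5 FPKM narrows the interval, so theirs are not ratios of the levels. With all 35 ways to divide the 7 libraries, a 2-sided exact permutation test gave p between 0.4 for Ephb2 and Znrf3 and 1 for Smoc2 and Lgr5, where the smallest p it can give is 0.0571.

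By level per length, the order of the genes was the same in both groups: Olfm4, Smoc2, Axin2, Rnf43, Ascl2, Sox9, Ephb2, Lgr5, Znrf3 and Tnfrsf19. In Ctrl, Olfm4 at 335 ± 31.2 FPKM and Smoc2 at 25.1 ± 3.89 FPKM (SD, n = 3) stood apart from each other and from the rest. Axin2, Rnf43, Ascl2, Sox9 and Ephb2 followed with means of 10.97 down to 4.49 FPKM, each overlapping its neighbours in the order. Lgr5 stood apart from Ephb2 above it and from Znrf3 below it in Ctrl, but its range overlapped both in cKO. Within every library, however, Ephb2 was higher than Lgr5 and Znrf3 was lower. Znrf3 and Tnfrsf19 overlapped in range in both groups, although Znrf3 was the higher in every library. Olfm4 made up 80.6% to 84.6% of the summed level of the 10 genes in cKO and 82.0% to 83.6% in Ctrl, so that the sum mostly follows Olfm4.

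The members had a pattern over single libraries in common. The highest of the 7 libraries was cKO replicate 1 for 5 of the 10 genes and cKO replicate 2 for the other 5. Over all genes tested these libraries were the highest for 12.5% and 12.8%. The lowest was cKO replicate 4 for 5 of the genes, against 13.2% of all genes tested. Replicate 1 exceeded every Ctrl library for all members but Tnfrsf19, where 26.7% of all genes tested did so. In replicate 2 the same held for all members but Ascl2, against 27.2%. None was below every Ctrl library in replicate 1 or 2, where 24.0% and 29.2% of all genes tested were. Replicate 3 was below every Ctrl library for Olfm4, Smoc2, Axin2, Rnf43 and Lgr5, 5 of 10 against 30.9% of all genes tested, and above all of them for 0 (29.1%). For Lgr5 the margin in replicate 3 was less than its counting error. In replicate 1 the margins of Lgr5 and Sox9 above the Ctrl range were of the size of their counting errors. Replicate 4 was below for these genes and for Sox9, 6 of 10 against 26.2%, and likewise above for 0 (29.2%). These lower counts moved with the scaling. With every library scaled to a common sum (TPM) the count below was 2 in replicate 3 and 9 in replicate 4, where 23.9% and 34.5% of all genes tested were below. Per recovered read it was 5 in replicate 3 and 10 in replicate 4, where 32.2% and 41.7% of all genes tested were below. The counts above every Ctrl library stayed at 9 in replicates 1 and 2 under both scalings, but the share of all genes tested rose. In replicates 1 and 2 that share was 41.8% and 47.7% with TPM, and 38.2% and 40.2% per recovered read. Other lists, described below, shared much of this pattern. On the deposited scaling, 9, 6, 0 and 0 of the 10 cycling genes lay above every Ctrl library in cKO replicates 1 to 4. Below every Ctrl library lay 0, 0, 10 and 4 of them. Of the 12 tested other genes of crypt base columnar cells, 7, 8, 3 and 0 lay above and 2, 0, 5 and 10 below.

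**Figure D3:**
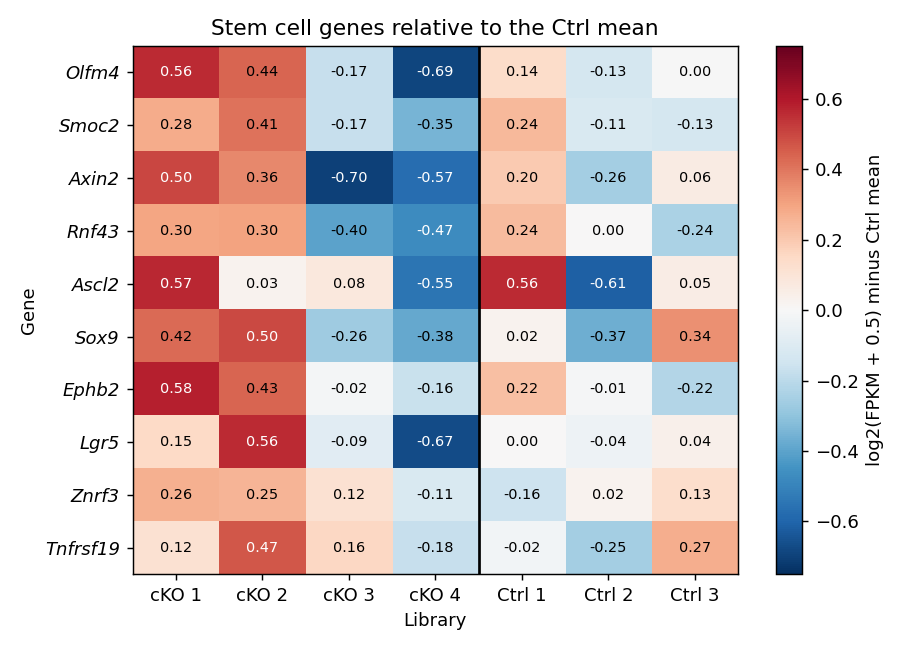
Level of each stem cell gene (rows) in each library (columns) on the log2(FPKM + 0.5) scale, minus the mean of the 3 Ctrl libraries. Red cells lie above and blue cells below the Ctrl mean, from 0.58 for Ephb2 in cKO replicate 1 to -0.70 for Axin2 in cKO replicate 3.

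Relative to the Ctrl mean on the log2 scale, Lgr5 had values of 0.15, 0.56, -0.09 and -0.67 over the 4 cKO libraries, replicate 1 to 4. Olfm4 had 0.56, 0.44, -0.17 and -0.69. Axin2 differed from both in that replicate 3, at -0.70, lay below replicate 4, at -0.57. In Ascl2 replicate 2, at 0.03, lay below replicate 3, at 0.08, and in Tnfrsf19 replicate 1, at 0.12, lay below replicate 3, at 0.16, both by less than the counting error of the gene. The SD of the log2 values inside cKO was larger than inside Ctrl for 8 of the 10 genes, with a median of 0.44 in cKO and 0.23 in Ctrl. Over all genes tested it was larger in cKO for 58.1%, with medians of 0.23 in cKO and 0.19 in Ctrl.

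The direction of the group difference changed with single libraries. The median log2 difference of the 10 genes was -0.057 without cKO replicate 1 and -0.078 without replicate 2. It was 0.11 without replicate 3 and 0.22 without replicate 4, and all 10 genes had a positive difference under each of those omissions. Without Ctrl replicate 2 it was -0.03. No member passed the test in limma when any 1 of the 7 libraries was left out, and the smallest adjusted p was 0.596, without cKO replicate 4.

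The genes whose profile over the 7 libraries lay nearest to that of a member were looked for by the root mean square distance between log2 profiles, each centred on its own mean. Candidates were tested genes of 1 FPKM or more on average, with a log2 range of at least 0.75 times that of the member, leaving out predicted gene names. Nearest to Lgr5, of 2423 candidates, were the metal transporter gene Slc39a8 (distance 0.072), Ccpg1os (0.10), the tetraspanin gene Tspan12 (0.12), Bckdhb, a subunit of the branched-chain keto acid dehydrogenase (0.12), and the cholesterol acyltransferase gene Soat1 (0.13). Slc39a8 stood at 1.68, 2.41, 1.51 and 0.905 FPKM in cKO, against 1.65, 1.57 and 1.49 FPKM in Ctrl. Its highest library was cKO replicate 2 and its lowest cKO replicate 4, as for Lgr5, a likeness that follows from how it was picked. Nearest to Olfm4, of 2335 candidates, were the chloride cotransporter gene Slc12a2 (0.080), Arid5b (0.096), Qsox2 (0.11), the histone chaperone gene Nap1l1 (0.11) and Dph5 (0.11). Slc12a2 stood at 39.9, 39.6, 28.5 and 18.1 FPKM in cKO, against 29.9, 25.5 and 28.8 FPKM in Ctrl. Slc12a2 and Soat1 are also among the 13 other genes of crypt base columnar cells described below. Among the members, Olfm4 (0.176) and Smoc2 (0.183) were the nearest to Lgr5 and Ascl2 the farthest from it (0.40). All distances rest on the same 7 libraries and the same scaling.

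Further genes of the pathway were described by list. Of 12 other Wnt targets 6 were tested, 0 were called by limma in either direction and 0 had an unadjusted p under 0.05, with a median log2 difference of -0.029. The most abundant were the cyclin gene Ccnd1, the proto-oncogene Myc and the transcription factor gene Sp5. Myc stood at 22.7, 26.0, 15.3 and 10.03 FPKM in cKO, against 22.5, 14.1 and 19.2 FPKM in Ctrl. Replicate 2 of cKO was above the Ctrl range, replicate 3 inside it and replicate 4 below it. Replicate 1 was above it only narrowly, at 22.71 FPKM against 22.55 FPKM in Ctrl replicate 1. Myc rested on 335 to 1052 reads per library, and its log2 difference was -0.07 (SE 0.32, limma adjusted p = 0.964). Ephb3, the relative of Ephb2, stood at 4.57, 4.35, 1.31 and 1.33 FPKM in cKO, against 3.61, 2.53 and 4.70 FPKM in Ctrl, with cKO replicates 3 and 4 below all Ctrl libraries (log2 difference -0.42, SE 0.43, limma adjusted p = 0.793). Cd44, a hyaluronan receptor, differed by 0.21 (SE 0.16, limma adjusted p = 0.721). Ccnd1 and Sp5 averaged 23.3 ± 9.03 and 10.2 ± 1.79 FPKM in cKO (SD, n = 4), against 19.8 ± 4.73 and 11.8 ± 3.93 FPKM in Ctrl (SD, n = 3).

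Of 10 receptors and ligands of R-spondin and Wnt signalling 6 were tested, with 0 called, 0 at an unadjusted p under 0.05 in limma and a median log2 difference of 0.15. Lgr4, the R-spondin receptor found throughout the crypt, stood at 25.1, 24.1, 20.03 and 15.7 FPKM in cKO, against 19.5, 16.7 and 17.1 FPKM in Ctrl. Here cKO replicate 3 was also above the Ctrl range and replicate 4 below it (log2 difference 0.23, SE 0.17, limma adjusted p = 0.710). The Wnt receptor gene Fzd5 averaged 29.0 ± 3.46 FPKM in cKO (SD, n = 4) and 25.8 ± 0.784 FPKM in Ctrl (SD, n = 3), and the co-receptor gene Lrp5 averaged 19.2 ± 2.02 FPKM in cKO and 19.1 ± 1.0002 FPKM in Ctrl. The paralog Lgr6 and the ligand gene Rspo2 were listed at 0 in every library.

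Of 13 other genes of crypt base columnar cells 12 were tested, with 0 called, 0 at an unadjusted p under 0.05 in limma and a median log2 difference of -0.066. Their summed level was 327, 312, 193 and 168 FPKM in cKO, against 283, 188 and 216 FPKM in Ctrl, which put cKO replicates 1 and 2 above and replicate 4 below the Ctrl libraries. Clca3b, the most abundant, stood at 185, 170.4, 93.3 and 93.1 FPKM in cKO, against 154, 83.9 and 106 FPKM in Ctrl. The potassium channel gene Kcnq1 averaged 25.3 ± 8.14 FPKM in cKO (SD, n = 4) and 25.8 ± 5.17 FPKM in Ctrl (SD, n = 3). Msi1, an RNA-binding protein of progenitor cells, stood at 2.88, 2.49, 1.26 and 1.37 FPKM in cKO, against 2.91, 2.15 and 2.38 FPKM in Ctrl. Gkn3 was low, on 9 to 43 reads per library, and differed by -0.44 (SE 0.32, limma adjusted p = 0.703).

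The 5 genes of reserve stem cells at the +4 position were all tested and 0 were called in limma, with 0 at an unadjusted p under 0.05 and a median log2 difference of -0.013. Bmi1, a Polycomb subunit, was the 1 gene whose libraries separated the groups, at 2.39, 2.74, 2.82 and 2.71 FPKM in cKO, against 1.97, 2.20 and 2.25 FPKM in Ctrl (log2 difference 0.26, SE 0.12, limma adjusted p = 0.575). Such separation upward in cKO occurred in 5.62% of all genes tested. The homeobox gene Hopx stood at 33.2, 28.9, 20.4 and 20.5 FPKM in cKO, against 33.95, 34.97 and 27.9 FPKM in Ctrl, and differed by -0.34 (SE 0.20, limma adjusted p = 0.634). Lrig1, an inhibitor of EGF receptors, averaged 3.82 ± 1.25 FPKM in cKO (SD, n = 4) and 3.75 ± 0.577 FPKM in Ctrl (SD, n = 3).

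Markers of dividing and of other cells varied over the same libraries. The cycling genes, all 10 tested with 0 called and 0 at an unadjusted p under 0.05 in limma, had a median log2 difference of 0.045 and a summed level of 287, 257, 174 and 203 FPKM in cKO, against 238, 200.01 and 215 FPKM in Ctrl. Mki67, the Ki-67 antigen, stood at 20.6, 21.6, 12.7 and 12.9 FPKM in cKO, against 13.3, 13.8 and 13.7 FPKM in Ctrl, thus on both sides of the Ctrl libraries. The helicase subunit gene Mcm5 had the largest difference of those named, -0.37 (SE 0.32, limma adjusted p = 0.752). The clamp gene Pcna averaged 84.5 ± 10.8 FPKM in cKO and 80.6 ± 4.95 FPKM in Ctrl, Top2a 31.5 ± 10.2 FPKM in cKO and 27.7 ± 3.73 FPKM in Ctrl, and Mcm6 20.8 ± 4.26 FPKM in cKO and 20.3 ± 2.28 FPKM in Ctrl (SD, n = 4 and n = 3).

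Paneth cells sit between the stem cells. The sum of 8 Paneth markers was 1.06, 1.07, 0.319 and 0.273 times the Ctrl mean in the cKO libraries, against 0.510, 0.947 and 1.54 times in Ctrl. Replicates 3 and 4 of cKO had the lowest Paneth sums as well as the lowest stem cell sums, but Ctrl replicate 3 had the highest Paneth sum of all 7 libraries and a stem cell sum of 0.990 times the Ctrl mean. The sum of 10 villus enterocyte markers was highest in cKO replicate 4, at 0.672, 0.622, 0.769 and 1.12 times the Ctrl mean in cKO, against 1.02, 0.897 and 1.09 times in Ctrl. The 8 immune markers stood at 0.482, 0.653, 1.22 and 1.16 times in cKO, against 1.48, 0.865 and 0.653 times in Ctrl, lowest in cKO replicate 1 and highest in Ctrl replicate 1. The sum of the 8 small intestinal genes, 4 of which are also among the enterocyte markers, was 0.540, 0.545, 0.893 and 0.852 times the Ctrl mean in cKO, against 0.928, 0.982 and 1.09 times in Ctrl. This sum was below every Ctrl library in all 4 cKO libraries and lowest in replicates 1 and 2. Between them, those replicates held the highest library of each stem cell gene. The single genes of this list went both ways, as 4 of the 8 had a log2 difference above 0 and 4 below. Their log2 differences ran from -0.65 to 0.96, and the median was 0.073. All cKO libraries lay below all Ctrl libraries for 2 of these genes and above them for 1. Over all genes tested, 4.51% separated downward and 5.62% upward. The part of these cell types and of the gut region in the spread of the stem cell genes was not tested, and in bulk RNA fewer cells of a type and less RNA per cell cannot be told apart.

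**Figure D4:**
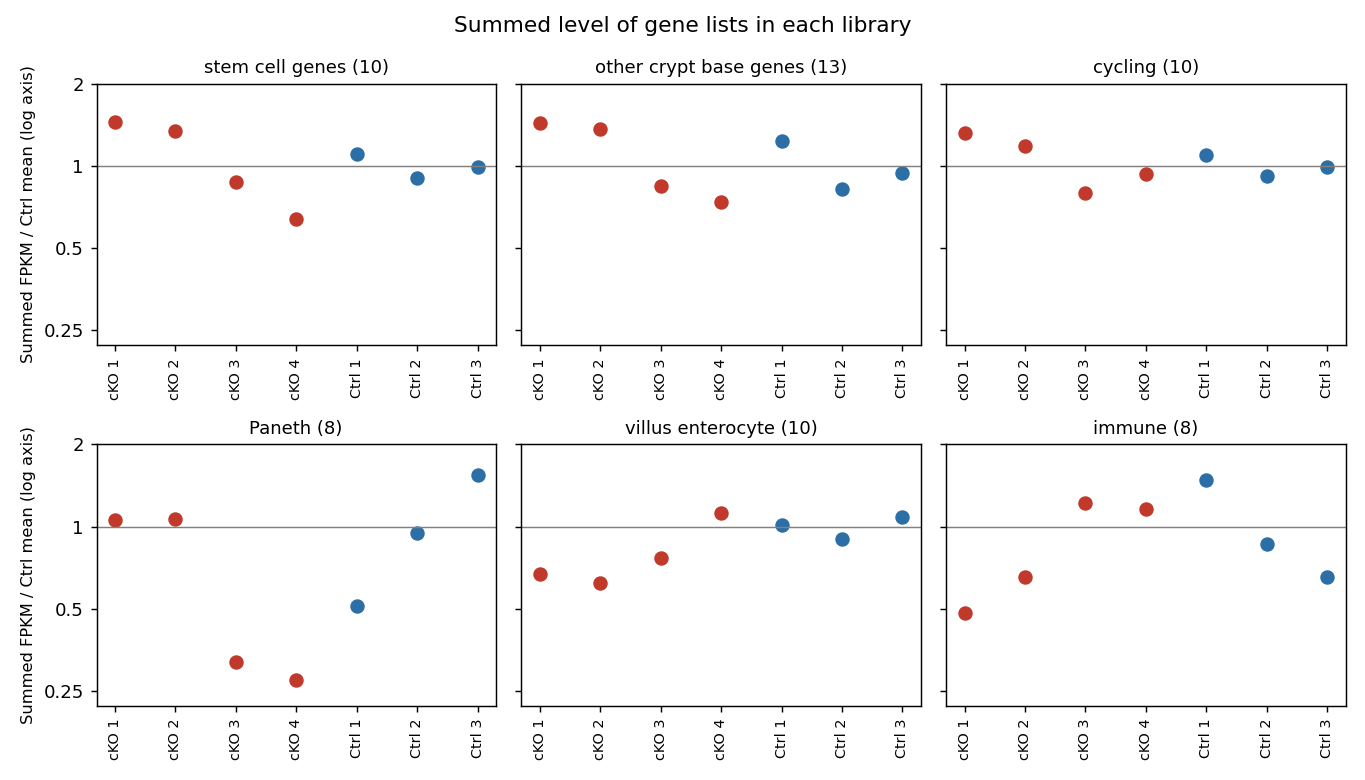
Summed FPKM of 6 gene lists in each library, divided by the mean of the 3 Ctrl libraries (vertical axis, log scale), for cKO (red) and Ctrl (blue). The sum of the stem cell genes ran from 1.44 in cKO replicate 1 to 0.636 in cKO replicate 4, and the Paneth sum from 1.54 in Ctrl replicate 3 to 0.273 in cKO replicate 4.

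Connective tissue was also considered, since Smoc2, Axin2 and Tnfrsf19 are expressed there too. Of 10 stromal and endothelial markers 9 had a mean under 0.5 FPKM, and their sum was 1.34, 1.04, 3.06 and 8.61 FPKM in cKO, against 3.63, 2.47 and 6.96 FPKM in Ctrl. Their part in the levels of the stem cell genes was not tested.

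The 10 genes lie on 6 chromosomes of GRCm39, the build whose sequences the table names. Axin2 (108808654 to 108841609), Rnf43 (87553913 to 87626365), Sox9 (112673036 to 112678583) and Znrf3 (5226329 to 5394847) are on chromosome 11. Olfm4 (80237742 to 80260581) and Tnfrsf19 (61201283 to 61284304) are on chromosome 14, the chromosome of Stk24 (121521599 to 121618269), at distances of 41.3 and 60.2 Mb from it. Lgr5 is on chromosome 10 (115286219 to 115423685), Ascl2 on chromosome 7 (142520559 to 142523001), Smoc2 on chromosome 17 (14499768 to 14625052) and Ephb2 on chromosome 4 (136374850 to 136563637). All are annotated as protein coding.

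Promoter sequence was matched in RefSeq (GRCm38.p6) for 6 of the 10 genes, Olfm4, Axin2, Rnf43, Ascl2, Ephb2 and Tnfrsf19, at 8 start sites. The 250 bases before each start were searched on both strands for CTTTGA, the core of TCF/LEF motifs, for CAGCTG, an E box of the kind bHLH factors bind, for TATAAA, the TATA box, and for GGGCGG, the GC box. No match overlapped one of another motif in these windows. Of 32851 RefSeq promoters, 13.8% hold CTTTGA, 13% CAGCTG, 12.4% TATAAA and 32.7% GGGCGG. Of the 8 windows of the stem cell genes, 1 of the pair for Tnfrsf19 holds CTTTGA and the same window holds CAGCTG, at 201 and 10 bases before the start. TATAAA is in none of the 8, and GGGCGG is in 3, those of Ascl2 and Axin2 and the same window of Tnfrsf19. The windows differ in composition: Axin2 has 69.2% G and C with 24 CpG dinucleotides, Ephb2 68.4% with 20 and Ascl2 67.6% with 19, against 54.0% with 4 for Olfm4 and medians of 52.4% and 6 over the table. A pair of contrasting windows, Olfm4 as the most abundant gene and Axin2 as the Wnt readout, is printed 5′ to 3′ with the Tnfrsf19 window, where capitals mark the CTTTGA match (read as TCAAAG on this strand) and CAGCTG. These lie at chr14:80000052-80000301 on the plus strand (Olfm4), chr11:108920099-108920348 on the plus strand (Axin2) and chr14:61037988-61038237 on the minus strand (Tnfrsf19).
Olfm4: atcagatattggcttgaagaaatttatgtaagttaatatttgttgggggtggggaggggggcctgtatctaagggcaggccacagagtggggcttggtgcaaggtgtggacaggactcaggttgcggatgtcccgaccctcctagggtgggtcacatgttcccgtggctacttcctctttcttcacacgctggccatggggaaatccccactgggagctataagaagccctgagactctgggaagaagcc
Axin2: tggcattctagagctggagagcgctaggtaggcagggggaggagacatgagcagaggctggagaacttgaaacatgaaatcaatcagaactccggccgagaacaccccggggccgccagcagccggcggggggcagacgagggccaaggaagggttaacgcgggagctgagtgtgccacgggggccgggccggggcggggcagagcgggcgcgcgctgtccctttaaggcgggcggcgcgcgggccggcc
Tnfrsf19: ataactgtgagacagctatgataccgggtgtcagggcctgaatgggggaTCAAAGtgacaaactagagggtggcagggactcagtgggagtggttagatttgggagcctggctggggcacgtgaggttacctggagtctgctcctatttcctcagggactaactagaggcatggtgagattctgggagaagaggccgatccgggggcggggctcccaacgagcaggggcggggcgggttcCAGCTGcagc
The log2 profiles of Olfm4 and Axin2 lay 0.20 apart, beside 0.31 for Olfm4 and Tnfrsf19. A match of letters is a description and not a bound site.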

How the data were processed

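The deposited table held 1 FPKM value per gene and library, made by the authors, with GRCm39 sequence names. Reads were aligned with HISAT2, per the submitters' processing notes. The sources used here name no counter, strand setting or annotation release, so reads of antisense or overlapping genes cannot be told apart. Groups and replicate numbers came from the titles, and columns were matched by the sample descriptions. The column names carry other numbers, which run on from Ctrl to cKO, for all libraries but Ctrl replicate 1. Multiplying FPKM by length and by 1 factor for each library gave whole reads (within 0.01) for 100% of values. The library size implied by the FPKM was 0.891 (cKO replicate 4) to 1.102 (cKO replicate 2) times these reads, which shifts FPKM between libraries. Counting errors cover counting only and are given for single libraries, so that the error of a margin between libraries is larger. Genes averaging 0.5 FPKM or more were compared on log2(FPKM + 0.5), which understates changes of low genes, with limma 3.58.1 in R 4.3.3 (lmFit, eBayes with trend, 2-sided, Benjamini-Hochberg, threshold 0.05), after tests on simulated data. The simulated libraries of a group varied independently, so they did not hold the likeness of cKO replicates 1 and 2 or of 3 and 4. Named from each of 5 pathway lists were the 3 members of highest mean FPKM and the 2 of smallest p. The members and lists were chosen with earlier results of these data known. The 22 alternatives to this fit covered pseudocount, filter, scaling, variance model, array weights, replicate block, voom on recovered reads, length and GC trends, and leaving out each library. The GC trend, and every alternative for the counts against the Ctrl range and for the nearest genes, were chosen after seeing the data.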

Additional observations from a re-analysis of the deposited data

Results flagged for a closer look

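The summed level of the 8 goblet cell markers was picked out because 1 of the 4 cKO libraries stood far from the others. The sum was 6878, 7176, 4335 and 7273 FPKM in cKO, against 7947, 5363 and 8293 FPKM in Ctrl. The gap between cKO replicate 3 and the next library was 0.866 of the whole range of the cKO group, above Dixon's 95% value of 0.829. In 45 groups examined in this way, chance picks out about 1 in 20. No stem cell gene was among them.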

How the results depend on the processing

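None of the 10 stem cell genes passed the threshold under any of the 22 alternatives, and their smallest adjusted p in limma was 0.471, with array weights. Of 219 values for these genes 185 kept their direction and 34 reversed it. Of 462 values for the 21 other named genes 414 kept it and 48 reversed. Since 0 of these genes were called, a reversal is a change of sign in a difference that did not pass the test. Some of the shifts were not small. Ascl2 went from 0.03 to -0.28 without Ctrl replicate 2, and Ephb3 from -0.42 to 0.031 with array weights. The reversals under the replicate block are those of leaving out cKO replicate 4, as described below. The cause of the other changes was not tested.

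The number of all genes called, 4 here, was 1 with a pseudocount of 0.1, without a filter, with a mean of at least 1 FPKM and with the length trend removed. It was 2 with the sum taken without abundant genes, with voom and with the GC trend removed, and 1 to 7 when single libraries were left out. Members below all Ctrl libraries in cKO replicate 3 numbered 2 after scaling to a common sum (TPM) and 2 with the sum without abundant genes, where 23.9% and 21.8% of all genes tested lay below. In cKO replicate 4 they numbered 10 per recovered read, where 41.7% of all genes tested lay below. Of the 5 genes nearest to Lgr5, 2 remained with the GC trend removed.

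The replicate numbers did not pair the libraries: deviations of same-numbered libraries correlated at 0.12, -0.09 and -0.13, and cKO replicate 3 correlated best with Ctrl replicate 2 (0.31). With the replicate block, which leaves cKO replicate 4 alone in its block, 0 genes were called (1052 at an unadjusted p under 0.05), and Stk24 stood at -2.44 with a limma adjusted p of 0.137. The median of the members was 0.22 under the block, as without cKO replicate 4. With that library alone in its block, the log2 differences are the same as in the fit without it. Reversed log2 differences under the block were Lgr5 0.21, Rnf43 0.067, Axin2 0.055, Myc 0.18, Lrp5 -0.048, Kcnq1 0.068 and Lrig1 0.087.

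With TPM, reversed values were Lgr5 0.065, Rnf43 0.016, Myc 0.015, Kcnq1 0.024 and Lrig1 0.068. With the sum without abundant genes they were Lgr5 0.075, Rnf43 0.025, Myc 0.024, Kcnq1 0.033 and Lrig1 0.074. With array weights they were Lgr5 0.20, Rnf43 0.080, Axin2 0.20, Myc 0.24, Ephb3 0.031, Lrp5 -0.0025, Kcnq1 0.14 and Lrig1 0.21. Quantile normalization reversed Kcnq1 (0.012) and voom Lgr5 (0.0043). Removing the length trend reversed Lrp5 (-0.034) and Mcm6 (-4.0e-05). Removing the GC trend gave Olfm4 -0.047, Rnf43 0.083, Axin2 0.080, Myc 0.081, Sp5 0.086, Slc12a2 -0.070, Kcnq1 0.062, Lrig1 0.078, Pcna -0.11, Top2a -0.0037 and Mcm6 -0.028.

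Leaving out single libraries reversed 7 of the 10 members and 10 other named genes in at least 1 case. The ranges were Ascl2 -0.28 to 0.31, Axin2 -0.30 to 0.099, Lgr5 -0.20 to 0.21, Olfm4 -0.14 to 0.28, Rnf43 -0.19 to 0.067, Smoc2 -0.082 to 0.17 and Sox9 -0.11 to 0.24. For the others they were Ccnd1 -0.046 to 0.40, Kcnq1 -0.22 to 0.093, Lrig1 -0.14 to 0.13, Lrp5 -0.048 to 0.047, Mcm6 -0.074 to 0.13, Myc -0.26 to 0.18, Pcna -0.0023 to 0.14, Slc12a2 -0.031 to 0.34, Sp5 -0.46 to 0.0081 and Top2a -0.029 to 0.31. The fewest reads in a library were 9 for Gkn3 among all named genes, and 50 for Tnfrsf19 and 96 for Lgr5 among the members.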
